A study of Mus musculus with 20 samples.

Results

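Interferon response and antigen presentation genes were followed across 5 groups of sorted mouse bone cells. The 53 genes were taken from the authors' filtered list by a rule on their names, set with earlier results of these data known. They cover the interferon receptors, the STAT and IRF transcription factors, sensors of foreign nucleic acid, interferon-induced effector proteins, and the class I and class II antigen presentation machinery. The rule took every listed symbol of these families except Ifitm5, and 1 probe set for each symbol, the brightest over the 20 arrays. The 53 stand among 9129 named genes on the same list. They had 67 probe sets in all, and 12 of the genes had more than 1. The 14 probe sets not used gave the same sign as the one used for AB minus A in 14 cases and for SL minus DN in 14. Sizes differed, and for SL minus DN the probe set of H2-K1 used gave 0.925 and the other 0.178. H2-D1 gave 0.524 against 0.117 and 0.416, while Ifi35 gave 0.487 against 1.039.

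Interferons are secreted alarm proteins of infection and inflammation. Type I interferons bind a receptor made of the Ifnar1 and Ifnar2 chains, interferon gamma binds one made of Ifngr1 and Ifngr2, and both send STAT proteins to the nucleus, where they switch on antiviral genes together with IRF factors. Interferon gamma also raises the class I molecules that show peptides from inside the cell, the peptide pump and proteasome parts that feed them, and, through a separate activator, the class II molecules that show peptides taken up from outside. Class I is carried by most nucleated cells, while class II is mainly a property of B cells, dendritic cells and macrophages. In bone, interferon gamma is known to restrain osteoclast formation.

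The cells came from enzymatically digested bones of untreated male wild-type C57BL6 mice, 8 weeks old, and were taken directly from the animal without culture. Every group was sorted as negative for blood lineage markers and for the endothelial protein CD31 and positive for CD51, the integrin alpha-v chain. Among Sca-1-negative cells, group A carried PDGFRa without PDGFRb, B carried PDGFRb without PDGFRa, AB was positive for the pair of receptors, and cells of DN lacked PDGFRa. SL was low for Sca-1 and negative for PDGFRa. The titles of DN and SL leave the sign of the PDGFRb gate unclear, and DN is read here as double-negative from its code. Each group had 4 arrays, numbered as replicates 1 to 4 and also written as DN 1 or AB 4, and nothing in the labels says that these were separate animals, so the p-values cover no more than the spread from array to array. Values are log2 array signal, levels are given as mean ± SD (n = 4 arrays per group), and differences as log2 values with their SE from limma, with Benjamini-Hochberg adjustment over all 9129 genes and a threshold of 0.05. The number of arrays limits the precision, and array medians lay between 6.40 and 6.46.

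Several arrays went against the gates. The 7 osteoblast markers measured were present on every array, with a summed linear signal of 18038 to 20101 in SL and 21526 to 27290 over the other 4 groups. Ly6a, which encodes Sca-1, read 7.01, 7.10, 10.18 and 10.90 in B replicates 1 to 4 and 7.09, 7.24, 8.72 and 10.05 in AB, in spite of the Sca-1-negative gate of these sorts. Replicates 3 and 4 of B and AB are therefore high for this transcript, and results for those groups were also computed from their replicates 1 and 2. Leukocyte transcripts were present on every array in spite of the lineage gate. The summed signal of 6 pan-leukocyte markers (Ptprc, Coro1a, Laptm5, Cd52, Arhgdib and Rac2) was 1193 to 2725 on DN arrays, 1656 to 3384 on A arrays, 1559 to 4203 on AB arrays, 2561 to 5438 on B arrays and 1036 to 2439 on SL arrays. All 6 were higher in B than in DN and all 6 lower in SL than B by the test, and 0 of 6 passed in the other 8 pairs. The 13 neutrophil markers measured followed the same course, with 11 called higher in B than in DN and 8 lower in SL than in B. Of 13 monocyte and macrophage markers 4 were measured, and 3 of them were called lower in SL than in B. Of 6 erythroid markers 2 were measured, and 2 of 2 were called higher in B than in DN and lower in SL than in B. The summed signal of 4 markers of Sca-1-positive fibroblasts (Ly6a, Cd34, Clec3b and Pi16) was 263 to 578 in DN, 547 to 942 in A, 601 to 3192 in AB, 383 to 4260 in B, and 3690 to 5368 across SL arrays. Of 3 endothelial markers measured 1 was called higher in SL than in each of the other 4 groups, and Tek, an endothelial receptor, had a mean of 7.48 ± 0.66 in SL and of 4.64 ± 0.31 in DN and ran from 4.31 to 7.50 over the B arrays. Fewer cells of a type and less RNA per cell cannot be told apart in such bulk samples.

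Promoters of the genes are shown first, since interferon-activated factors act through short motifs near the start of transcription. Promoter windows, from 250 bases before to 50 bases after the start, were found in the RefSeq table of GRCm38.p6 for 43 of the 53 genes. Both strands were searched for GAAA and GAAA separated by any 2 bases, the core of the element bound by the STAT and Irf9 complex and by IRF factors, and for TTCNNNGAA, the palindrome bound by STAT dimers. The first motif was in the windows of 11 of 43 genes (25.6%), against 3.99% of 27025 genes with a window and 3.27% of the 7067 tested genes with one. The second was in 15 of 43 (34.9%), against 9.55% of all genes and 8.35% of the tested genes with a window. The genes were chosen by names tied to interferon, so these shares are a description and not a test. Of the 20 genes with a window that were called higher in AB than in A, 7 had the first motif, and of the other 23 genes 4 had it. The second motif was in 7 of these 20 and in 8 of the other 23, so its share hardly differed. The first motif lay in 3 of 4 GTPase windows, both sensor windows, 2 of 4 Ifitm windows and 2 of 6 windows of antiviral effectors. It lay in 1 of 8 class I and loading windows, in 1 of 6 of STAT and IRF factors, in 0 of 4 of interferon receptors, in 0 of 4 of class II genes and in 0 of 5 of the other genes. A match describes the letters of the window and is not a proven binding site. The 4 windows below were picked because they hold the first motif and belong to genes of 4 roles called higher in AB than in A, and B2m is the one class I gene with a match. They are written 5′ to 3′ on the strand of the gene with matches to the first motif, read on either strand, in capitals. They lie at chr3:142620413-142620712 for Gbp2 (plus strand), chr7:141010695-141010994 for Ifitm3 (minus strand), chr8:71537423-71537722 for Bst2 (minus strand) and chr2:122147437-122147736 for B2m (plus strand), all in GRCm38.p6.
Gbp2: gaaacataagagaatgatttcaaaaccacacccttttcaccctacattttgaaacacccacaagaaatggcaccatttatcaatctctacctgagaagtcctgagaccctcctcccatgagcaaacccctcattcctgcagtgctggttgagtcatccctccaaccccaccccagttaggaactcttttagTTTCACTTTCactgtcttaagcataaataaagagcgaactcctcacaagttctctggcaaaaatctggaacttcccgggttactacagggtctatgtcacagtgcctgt
Ifitm3: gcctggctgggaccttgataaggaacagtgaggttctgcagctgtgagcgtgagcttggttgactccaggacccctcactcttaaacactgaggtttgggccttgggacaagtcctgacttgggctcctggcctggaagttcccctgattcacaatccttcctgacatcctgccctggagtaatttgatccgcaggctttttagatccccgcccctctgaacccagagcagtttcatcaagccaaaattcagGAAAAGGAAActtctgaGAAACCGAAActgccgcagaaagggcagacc
Bst2: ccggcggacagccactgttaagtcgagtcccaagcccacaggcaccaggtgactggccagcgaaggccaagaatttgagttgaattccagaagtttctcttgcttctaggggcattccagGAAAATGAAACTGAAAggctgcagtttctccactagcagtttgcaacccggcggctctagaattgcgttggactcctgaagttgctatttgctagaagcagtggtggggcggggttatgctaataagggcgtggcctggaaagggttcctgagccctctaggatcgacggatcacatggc
B2m: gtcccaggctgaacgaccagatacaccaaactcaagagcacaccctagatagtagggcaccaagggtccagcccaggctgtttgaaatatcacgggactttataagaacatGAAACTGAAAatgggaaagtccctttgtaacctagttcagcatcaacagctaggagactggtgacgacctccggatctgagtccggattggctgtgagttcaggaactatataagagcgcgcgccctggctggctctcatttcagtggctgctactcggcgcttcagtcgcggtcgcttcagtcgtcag
The match began 59 bases before the start in Gbp2, 130 in Bst2 and 139 in B2m, while both matches of Ifitm3 lay after the start. In Ifitm3 and Bst2 a match to the first motif overlapped one to the second.

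By limma's moderated F test 43 of the 53 genes differed among the 5 groups (81.1%), against a background of 50.6% of all genes. For the 41 genes with a mean log2 of at least 7 the count was 33 (80.5%), against 50.0% of 7669 genes. The 10 that did not pass were H2-DMb2, H2-Ke6, Ifi27l2b, Irf1, Irf2bp1, Irf2bpl, Irf5, Isg20, Oas1e and Tapbpl. The highest group mean was in AB for 21 genes, in B for 13, in DN for 11, in SL for 8 and in A for 0. The lowest was in DN for 27, in SL for 14, in A for 6, in B for 4 and in AB for 2. In 15 genes at least 1 group mean was below an intensity of 100 (log2 6.64), the level that the name of the authors' filtered list gives. For 8 of these no more than 1 group had all its arrays at that level, namely Irf7, Ifi204, Ifih1, Ddx58, Ifitm6, Ifi47, H2-DMb2 and Ifit2. A gene that entered the list through its brightest group alone had to differ, so the share called is a description. The same holds for its calls between that group and another. In Irf7, Ddx58 and Ifi47 the 1 group with all arrays at that level was AB, and the other 5 genes had none. Of those 5, Ifi204 reached that level on SL arrays alone. Calls of Irf7, Ddx58 and Ifi47 against AB, and of Ifi204 against SL, are therefore descriptions, also where they are counted below.

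**Figure D1:**
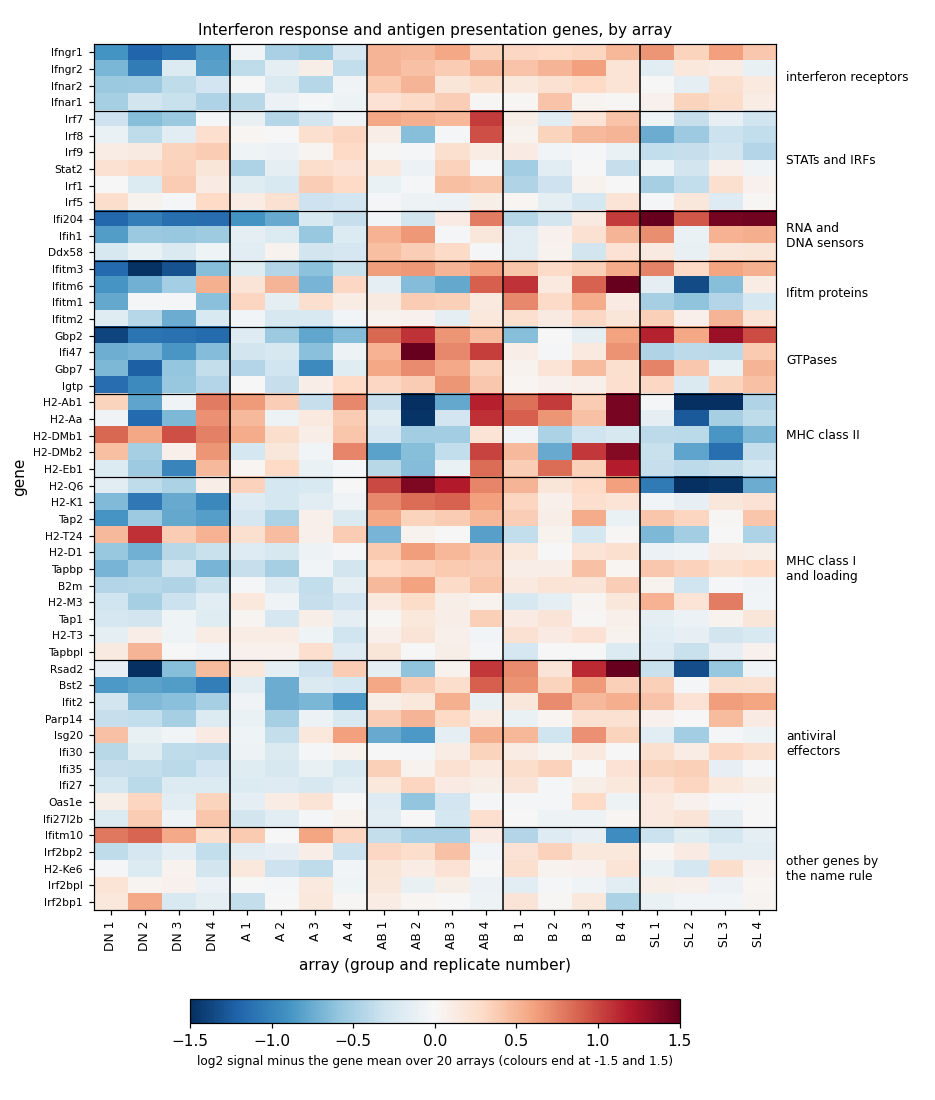
Log2 signal of 52 of the 53 genes (rows, grouped by role) on the 20 arrays (columns, grouped by sort), each row shown as the difference from its own mean over the arrays, with colours ending at -1.5 and 1.5. Receptors, GTPases and most class I and loading genes run from blue in DN to red in AB, while H2-T24 runs the other way and H2-T3 and Tapbpl change little. H2-Q6 is bluest in SL, and the class II rows change from array to array within a group.

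The 10 pairs of groups share arrays, so their counts are given side by side and not as separate evidence. A against DN, which differ in PDGFRa, had few changes: 7 genes were higher in A and 0 lower, against 3.53% of all genes called in either direction and 2.89% called higher in A. The 7 were Igtp, Ifitm3, H2-K1, Ifngr1, Tap2, Bst2 and H2-D1, the last named after its value was seen. The H2-D1 call was lost on leaving out any single array among DN 1, DN 2, A 1, A 3 and A 4 (adjusted p from 0.0505 up to 0.103). The median difference over the 53 was 0.23, against 0.00 over all genes, and 35 of 53 differences were above 0. AB against A, which differ in PDGFRb among PDGFRa-positive cells, had 23 genes higher and 3 lower, against 32.9% of all genes called, with a median of 0.27 against 0.03. B against A, which exchange PDGFRa for PDGFRb, had 16 higher and 2 lower, against 29.7%, with a median of 0.32 against 0.03. AB against DN had 31 higher and 4 lower, against 46.1%, and B against DN had 33 higher and 5 lower, against 45.7%. SL against DN had 24 higher and 5 lower, against 45.2%, and SL against A had 17 higher and 7 lower, against 32.6%. SL against AB turned the other way, with 1 higher and 8 lower, against 9.34% of all genes in either direction, 4.43% higher and 4.92% lower in SL, and a median of -0.16 against 0.00. Of the 7 osteoblast markers 5 were called lower in SL than in AB (median -0.65), and 4 were lower and 1 higher in SL than in DN. Their part in the differences of SL was not tested. SL against B had 2 higher and 11 lower, against 12.5%. AB against B, which differ in PDGFRa among PDGFRb-positive cells, had 1 gene higher, H2-K1, and 0 lower, against 1.52% of all genes in either direction and 1.12% higher in AB, while 15 of the 53 had an unadjusted p under 0.05.

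Counts of calls depended on some arrays. With B and AB from replicates 1 and 2 alone, AB against A kept 25 of its 26 calls and had 28 (26.8% of all genes), while B against A kept 12 of 18 calls (26.0%), AB against DN 34 of 35 (38.7%), B against DN 31 of 38 (38.8%) and SL against B 8 of 13 (11.5%). In that setting SL against A, whose arrays were the same, kept 24 of 24 (33.6%). Every one of the 29 calls of SL against DN and of the 9 of SL against AB survived the omission of any 1 array, as did 23 of 26 for AB against A, 14 of 18 for B against A, 4 of 7 for A against DN, 17 of 24 for SL against A and 4 of 13 for SL against B. In SL against B the call of B2m was lost on leaving out any single array among AB 1, B 1, B 2, B 3, B 4, SL 2, SL 3 and SL 4 (adjusted p from 0.0502 up to 0.166), that of H2-T3 on leaving out any single array among B 1 and SL 3 (adjusted p from 0.0573 up to 0.0585), that of Irf8 on leaving out SL 1 (adjusted p = 0.057), that of Irf9 on leaving out any single array among B 1, SL 1 and SL 4 (adjusted p from 0.0526 up to 0.0878) and that of Ifitm6 on leaving out any single array among B 1, B 4, SL 2 and SL 3 (adjusted p from 0.0528 up to 0.0871). In B against A the call of H2-D1 was lost on leaving out any single array among A 1, A 2, B 1, B 3 and B 4 (adjusted p from 0.0588 up to 0.0849), that of Ifitm2 on leaving out any single array among A 2, A 3, B 1 and B 3 (adjusted p from 0.0591 up to 0.0777) and that of Irf2bp2 on leaving out any single array among A 4 and B 2 (adjusted p from 0.0631 up to 0.0754).

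**Figure D2:**
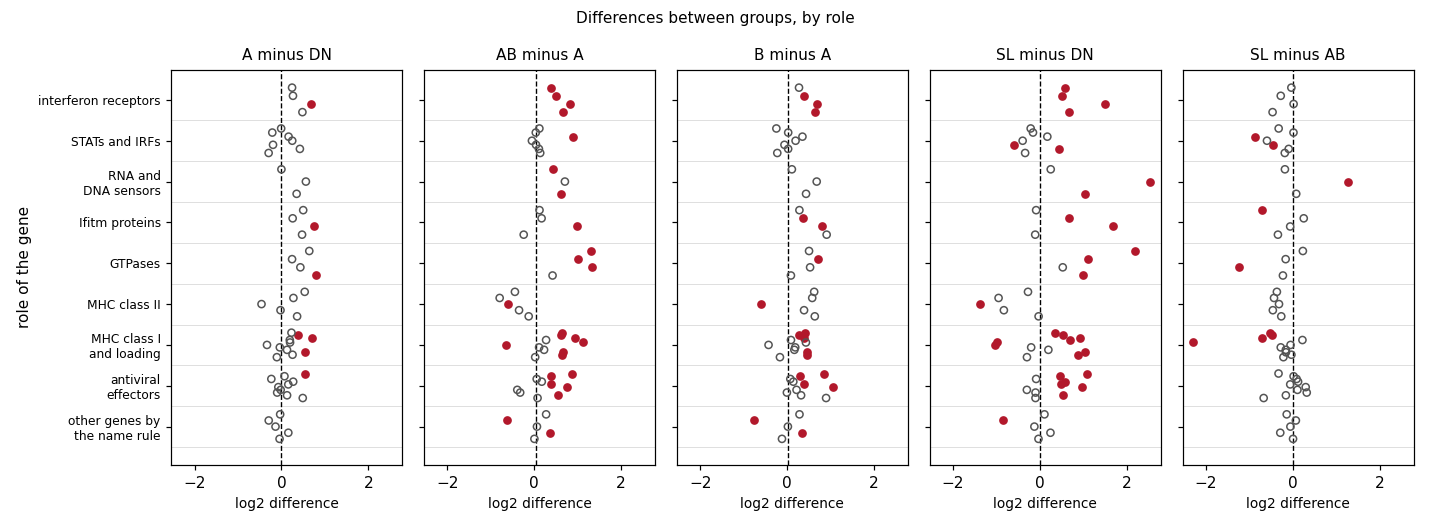
Log2 differences of the 53 genes between groups, by role, for 5 of the 10 pairs; filled red points passed the adjusted threshold and open points did not, and the dashed line is the median of all 9129 genes. Most red points lie right of the line for AB minus A and SL minus DN, whereas 8 of the 9 red points for SL minus AB lie left of it.

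Interferon receptors were lowest in DN in all 4 cases and called higher in AB than in A in all 4, against 17.7% of all genes. Ifngr1, the chain that binds interferon gamma (chromosome 10, 19591949 to 19610229), showed the largest range of the 4. For Ifngr1, DN arrays 1 to 4 gave 8.65, 8.36, 8.46 and 8.70, A arrays gave 9.51, 9.06, 8.99 and 9.30, AB arrays gave 10.07, 10.03, 10.13 and 9.90, B arrays gave 9.87, 9.85, 9.87 and 10.05, and SL arrays gave 10.22, 9.89, 10.16 and 9.95. All DN arrays lay below all A arrays, and all A arrays below every array of AB, B and SL, which overlapped each other. Ifngr1 was higher in A than DN by 0.67 (SE 0.12, adjusted p = 0.0018), in AB than A by 0.82 (SE 0.12, adjusted p = 1.4e-05) and in B than A by 0.70 (SE 0.12, adjusted p = 9.91e-05). It was higher in SL than DN by 1.51 (SE 0.12, adjusted p = 2.66e-09), and the difference of SL from AB was 0.02 (SE 0.12, 95% interval -0.22 to 0.26, adjusted p = 0.959). Ifngr2, the signalling chain of the same receptor, followed a different course in SL. For Ifngr2, DN arrays 1 to 4 gave 8.44, 8.08, 8.93 and 8.32, A arrays gave 8.74, 8.98, 9.22 and 8.76, AB arrays gave 9.64, 9.57, 9.51 and 9.63, B arrays gave 9.56, 9.64, 9.74 and 9.33, and SL arrays gave 8.96, 9.28, 9.24 and 9.02. The AB arrays lay above every A array, and the SL arrays lay below every AB and B array and overlapped A. The difference was 0.66 (SE 0.15, adjusted p = 0.00156) for AB minus A and 0.64 (SE 0.15, adjusted p = 0.00234) for B minus A, and SL minus AB gave -0.46 (SE 0.15, adjusted p = 0.055). Ifnar2, a chain of the type I interferon receptor, spanned a narrower range. For Ifnar2, DN arrays 1 to 4 gave 10.06, 10.08, 10.24 and 10.33, A arrays gave 10.62, 10.40, 10.18 and 10.56, AB arrays gave 11.003, 11.12, 10.80 and 10.88, B arrays gave 10.77, 10.84, 10.91 and 10.82, and SL arrays gave 10.62, 10.47, 10.86 and 10.76. Its AB arrays lay above all A arrays (0.51, SE 0.11, adjusted p = 0.00106). Ifnar1, the other chain, was at 8.73 ± 0.11 in DN and 9.35 ± 0.15 in AB, the highest of its 5 means, and its call for AB against A was lost on leaving out any single array among A 1 and AB 3 (adjusted p from 0.0524 up to 0.0683).

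**Figure D3:**
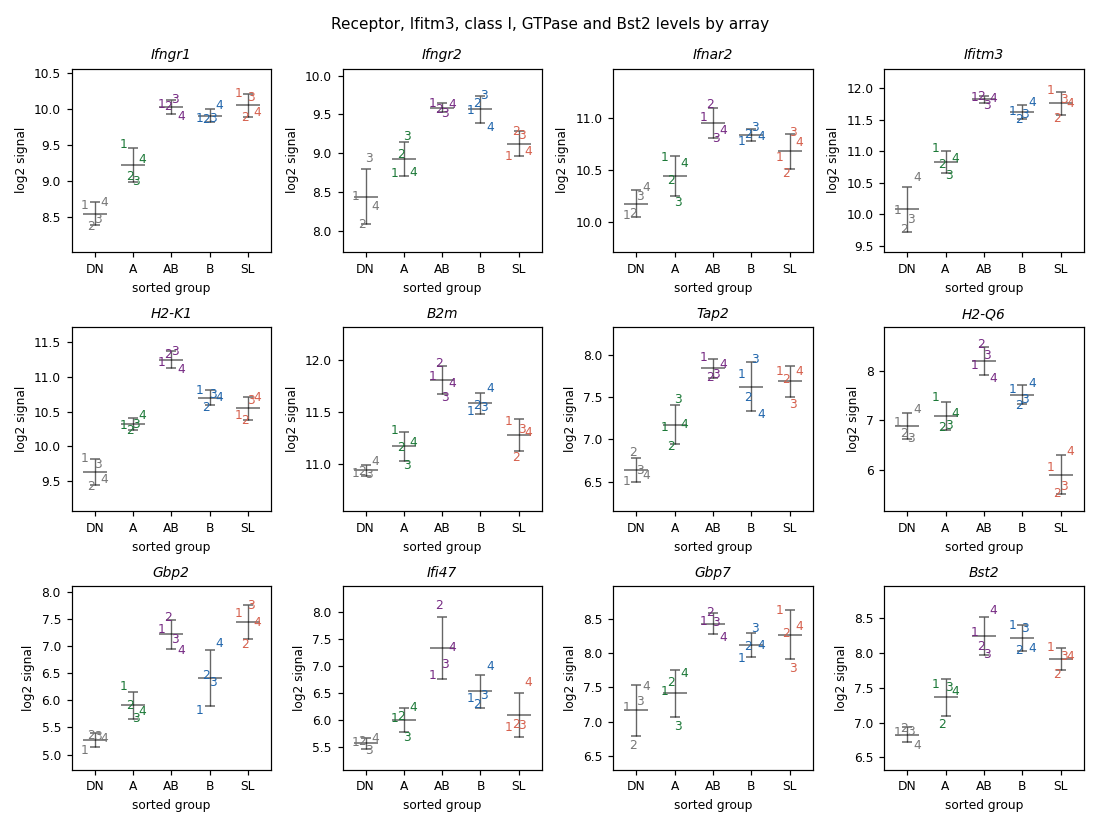
Log2 signal of 12 genes in each sorted group; digits are the replicate numbers of single arrays, and the horizontal mark with its bar is the mean ± SD of 4 arrays. In 11 of the 12 panels the DN mean is the lowest, and in H2-Q6 the SL mean is.

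Among the 7 STAT and IRF factors 5 passed the F test, against 50.6% of all genes, and they did not share 1 direction. Irf7, the factor that amplifies type I interferon production, was highest in AB. For Irf7, DN arrays 1 to 4 gave 5.92, 5.59, 5.68 and 6.20, A arrays gave 6.12, 5.80, 5.95 and 6.18, AB arrays gave 6.81, 6.77, 6.73 and 7.27, B arrays gave 6.32, 6.06, 6.43 and 6.65, and SL arrays gave 6.16, 5.89, 6.11 and 5.92. Every AB array lay above every array of the other groups, with replicate 4 the highest. The highest Irf7 array was that with the highest fibroblast sum in 5 of 5 groups and the lowest that with the lowest sum in 4 of 5, against 4 and 3 of 5 for the leukocyte sums, and the part of these cells was not tested. Irf7 was higher in AB than A by 0.88 (SE 0.15, adjusted p = 0.000113) and lower in SL than AB by a signed difference of -0.88 (SE 0.15, adjusted p = 0.000583). These values are a description, since AB was the only group of Irf7 with all arrays at an intensity of 100. Irf9, which binds DNA together with STAT proteins, was highest in DN and lowest in SL. For Irf9, DN arrays 1 to 4 gave 7.999, 8.03, 8.23 and 8.28, A arrays gave 7.82, 7.81, 7.93 and 8.19, AB arrays gave 7.91, 7.86, 8.14 and 8.01, B arrays gave 8.02, 7.85, 7.86 and 7.79, and SL arrays gave 7.52, 7.55, 7.61 and 7.45. The SL arrays lay below all others, with a difference of -0.60 (SE 0.10, adjusted p = 4.7e-05) from DN, while that of B from DN (-0.26, SE 0.10, adjusted p = 0.0397) was not called on leaving out any single array among DN 3, DN 4, B 2, B 3 and B 4 (adjusted p from 0.0745 up to 0.122). Irf8, a factor of myeloid and B cell development, varied widely within AB. For Irf8, DN arrays 1 to 4 gave 6.76, 6.48, 6.70 and 7.11, A arrays gave 6.89, 6.87, 7.10 and 7.18, AB arrays gave 6.96, 6.22, 6.83 and 7.83, B arrays gave 6.91, 7.19, 7.35 and 7.38, and SL arrays gave 6.12, 6.31, 6.54 and 6.49. The AB arrays spanned all values of DN, A and B, from replicate 2 to replicate 4, the arrays with the lowest and highest leukocyte sums of AB. Over the 5 groups the highest and lowest Irf8 arrays matched those of the leukocyte sum in 4 and 2 and those of the fibroblast sum in 4 and 3. Irf8 was lower in SL than A by a signed difference of -0.64 (SE 0.23, adjusted p = 0.0343), a call that was lost on leaving out any single array among A 3, A 4, SL 1 and SL 2 (adjusted p from 0.0683 up to 0.0978). Stat2, which carries the type I interferon signal, was lower in B than in DN (-0.52, SE 0.15, adjusted p = 0.0063). Irf1, a direct target of interferon gamma, had means between 9.60 ± 0.24 in B and 9.96 ± 0.29 in AB, and Irf5 between 9.41 ± 0.27 in A and 9.62 ± 0.16 in DN.

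The 3 sensors of foreign nucleic acid were called higher in AB than in DN, against 24.7% of all genes, and all 3 were dim. Ifi204, a DNA-binding member of the PYHIN family, had the widest spread of group means among the 53 genes. For Ifi204, DN arrays 1 to 4 gave 4.13, 4.28, 4.18 and 4.17, A arrays gave 4.41, 4.55, 5.08 and 4.96, AB arrays gave 5.28, 5.04, 5.44 and 6.08, B arrays gave 4.89, 5.03, 5.45 and 6.37, and SL arrays gave 7.17, 6.24, 6.75 and 6.76. All DN arrays lay below all A arrays, and the SL arrays were the highest, with B replicate 4 the one array of another group inside the SL range. Ifi204 was higher in SL than DN by 2.54 (SE 0.27, adjusted p = 2.14e-07), than in AB by 1.27 (SE 0.27, adjusted p = 0.00357) and than in B by 1.30 (SE 0.27, adjusted p = 0.00269). The Sca-1-positive fibroblast markers Ly6a, Cd34, Clec3b and Pi16 moved with it, all 4 called higher in SL than in DN, and within both B and AB replicates 3 and 4, the arrays with high Ly6a, were also those highest for Ifi204. Their part in the result was not tested. With B and AB from replicates 1 and 2 the difference of SL from AB was 1.57 (SE 0.21, adjusted p = 0.000103). These differences of SL are a description, since SL was the only group of Ifi204 with any array at an intensity of 100. Ifih1, the RNA sensor MDA5, was higher in SL than DN by 1.04 (SE 0.18, adjusted p = 7.13e-05) and in AB than A by 0.61 (SE 0.18, adjusted p = 0.0108). For Ifih1, DN arrays 1 to 4 gave 5.64, 5.92, 5.91 and 5.94, A arrays gave 6.33, 6.28, 5.92 and 6.28, AB arrays gave 7.01, 7.13, 6.46 and 6.65, B arrays gave 6.31, 6.55, 6.71 and 6.99, and SL arrays gave 7.18, 6.38, 6.998 and 7.02. The DN and AB arrays did not overlap. Ddx58, the RNA sensor RIG-I, was higher in AB than A by 0.43 (SE 0.12, adjusted p = 0.00858). AB was its only group with all arrays at an intensity of 100, so this value is a description. For Ddx58, DN arrays 1 to 4 gave 6.49, 6.63, 6.52 and 6.66, A arrays gave 6.58, 6.78, 6.46 and 6.48, AB arrays gave 7.19, 7.10, 7.02 and 6.71, B arrays gave 6.56, 6.78, 6.45 and 6.94, and SL arrays gave 6.86, 6.62, 6.91 and 6.91. AB replicate 4 lay below A replicate 2, so these groups overlapped.

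Of the 4 Ifitm genes, which encode small membrane proteins that block virus entry, Ifitm3 changed most. It lies on chromosome 7, 141009586 to 141010770, beside Ifitm1 and Ifitm2. For Ifitm3, DN arrays 1 to 4 gave 10.05, 9.75, 9.91 and 10.58, A arrays gave 11.04, 10.78, 10.62 and 10.89, AB arrays gave 11.86, 11.87, 11.74 and 11.84, B arrays gave 11.64, 11.51, 11.59 and 11.78, and SL arrays gave 11.97, 11.53, 11.82 and 11.76. All A arrays exceeded all DN arrays, and all arrays of AB, B and SL exceeded all A arrays. Ifitm3 was higher in A than DN by 0.76 (SE 0.14, adjusted p = 0.00371), in AB than A by 0.99 (SE 0.14, adjusted p = 1.57e-05), in B than A by 0.80 (SE 0.14, adjusted p = 0.000205) and in SL than DN by 1.69 (SE 0.14, adjusted p = 8.77e-09). The call for A against DN did not hold when those groups were fitted alone (adjusted p = 0.0568). Ifitm2 was highest in SL, at 11.21 ± 0.19 against 10.52 ± 0.25 in DN. Ifitm1 took another course and was lowest in SL. For Ifitm1, DN arrays 1 to 4 gave 7.81, 8.54, 8.55 and 7.94, A arrays gave 8.90, 8.43, 8.82 and 8.69, AB arrays gave 8.71, 8.95, 8.94 and 8.73, B arrays gave 9.29, 8.86, 9.13 and 8.69, and SL arrays gave 8.07, 7.98, 8.13 and 8.32. The SL arrays lay below every A, AB and B array, with a difference of -0.59 (SE 0.17, adjusted p = 0.00977) from A and -0.71 (SE 0.17, adjusted p = 0.0076) from AB. Ifitm6 was dim and varied widely within groups. For Ifitm6, DN arrays 1 to 4 gave 5.45, 5.62, 5.82 and 6.87, A arrays gave 6.53, 6.85, 5.64 and 6.65, AB arrays gave 6.20, 5.68, 5.57 and 7.24, B arrays gave 7.42, 6.49, 7.23 and 8.17, and SL arrays gave 6.19, 4.995, 5.69 and 6.45. Its highest array was the one with the highest leukocyte sum in 4 of 5 groups, and its lowest the one with the lowest sum in 3 of 5, against 3 and 2 of 5 for the fibroblast sums. Ifitm6 was higher in B than DN by 1.39 (SE 0.41, adjusted p = 0.00994), and with B and AB from replicates 1 and 2 the difference was 1.01 (SE 0.44, adjusted p = 0.0804). The Ifitm genes resemble each other in sequence, so probes may read more than 1 of them.

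The 4 interferon-induced GTPases, enzymes that attack the membranes around intracellular pathogens, were lowest in DN. Of them 3 were called higher in AB than in A, against 17.7% of all genes. Gbp2, a guanylate-binding protein, had its highest means in SL and AB. For Gbp2, DN arrays 1 to 4 gave 5.07, 5.36, 5.34 and 5.30, A arrays gave 6.26, 5.90, 5.67 and 5.80, AB arrays gave 7.31, 7.53, 7.11 and 6.92, B arrays gave 5.81, 6.46, 6.32 and 7.05, and SL arrays gave 7.60, 7.03, 7.75 and 7.43. All AB and SL arrays lay above all A and DN arrays, and the 4 B arrays ran from within the A range to within the AB range. Gbp2 was higher in AB than A by 1.31 (SE 0.21, adjusted p = 5.2e-05), in SL than DN by 2.19 (SE 0.21, adjusted p = 4.83e-08) and in SL than B by 1.04 (SE 0.21, adjusted p = 0.00194). Of the 4 fibroblast markers 4 were called higher in SL than in DN and 2 higher than in B, and their part in these differences was not tested. Ifi47, an immunity-related GTPase, was highest in AB and not in SL. For Ifi47, DN arrays 1 to 4 gave 5.58, 5.61, 5.43 and 5.66, A arrays gave 6.04, 6.07, 5.69 and 6.23, AB arrays gave 6.83, 8.13, 7.03 and 7.35, B arrays gave 6.41, 6.29, 6.46 and 6.99, and SL arrays gave 5.86, 5.92, 5.90 and 6.71. AB replicate 2 was the highest of all arrays, and SL overlapped A. Ifi47 was higher in AB than A by 1.33 (SE 0.23, adjusted p = 0.000153) and lower in SL than AB by a signed difference of -1.24 (SE 0.23, adjusted p = 0.00128). As for Irf7, AB was its only group with all arrays at an intensity of 100, so these values are a description. Gbp7, a neighbour of Gbp2 on chromosome 3, resembled Gbp2 in AB and SL. For Gbp7, DN arrays 1 to 4 gave 7.20, 6.65, 7.30 and 7.52, A arrays gave 7.44, 7.57, 6.93 and 7.70, AB arrays gave 8.45, 8.59, 8.45 and 8.22, B arrays gave 7.92, 8.09, 8.35 and 8.11, and SL arrays gave 8.62, 8.28, 7.78 and 8.38. It was higher in AB than A by 1.02 (SE 0.19, adjusted p = 0.000337) and in B than A by 0.71 (SE 0.19, adjusted p = 0.00796), which became 0.60 (SE 0.25, adjusted p = 0.0917) with replicates 1 and 2 of B. Igtp, another immunity-related GTPase, was the member with the largest difference of A from DN, 0.80 (SE 0.16, adjusted p = 0.00804), a call that was lost when those groups were fitted alone (adjusted p = 0.0532).

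Of the 11 class I and peptide-loading genes 10 passed the F test, against 50.6% of all genes. In AB against A 6 were called higher, against 17.7% of all genes, and 1, H2-T24, lower, against 15.2%. H2-K1, a classical class I heavy chain (chromosome 17, 33996017 to 34000333), separated 4 of the groups. For H2-K1, DN arrays 1 to 4 gave 9.82, 9.41, 9.73 and 9.52, A arrays gave 10.29, 10.23, 10.32 and 10.44, AB arrays gave 11.21, 11.33, 11.37 and 11.11, B arrays gave 10.81, 10.56, 10.74 and 10.70, and SL arrays gave 10.45, 10.37, 10.66 and 10.71. Every DN array lay below every A array, every A array below every B array, and every B array below every AB array, while SL overlapped A and B. H2-K1 was higher in A than DN by 0.70 (SE 0.10, adjusted p = 0.000504), in AB than A by 0.94 (SE 0.10, adjusted p = 7.54e-07) and in AB than B by 0.55 (SE 0.10, adjusted p = 0.00623), the one gene of the 53 called between AB and B over all 20 arrays without a block. That call was lost with B and AB from replicates 1 and 2 (0.58, SE 0.16, adjusted p = 0.0962), where the difference itself was no smaller, and where Gbp2 was the one gene called (1.28, SE 0.24, adjusted p = 0.00897). Without AB replicate 4 the count between AB and B was 6, without B replicate 4 it was 3 and without any replicate 4 it was 5. The shares of all genes called in those settings were not computed. H2-Q6, a nonclassical class I heavy chain, was high in AB and lowest in SL. For H2-Q6, DN arrays 1 to 4 gave 6.95, 6.74, 6.64 and 7.21, A arrays gave 7.47, 6.85, 6.89 and 7.13, AB arrays gave 8.11, 8.52, 8.30 and 7.84, B arrays gave 7.63, 7.30, 7.41 and 7.73, and SL arrays gave 6.05, 5.53, 5.66 and 6.38. All SL arrays lay below all arrays of the other groups, and all AB arrays above them. H2-Q6 was higher in AB than A by 1.11 (SE 0.19, adjusted p = 0.000116), and the signed difference of SL was -0.98 (SE 0.19, adjusted p = 0.000274) from DN and -2.29 (SE 0.19, adjusted p = 1.07e-07) from AB. H2-K1, H2-D1 and H2-Q6 are near-identical over long stretches, so their probe sets may share signal, though their courses in SL differed. Tap2, which forms the peptide pump with Tap1, was called higher in AB than in A. For Tap2, DN arrays 1 to 4 gave 6.51, 6.84, 6.63 and 6.57, A arrays gave 7.14, 6.92, 7.47 and 7.17, AB arrays gave 7.97, 7.73, 7.77 and 7.89, B arrays gave 7.77, 7.50, 7.95 and 7.29, and SL arrays gave 7.81, 7.71, 7.42 and 7.81. All A arrays lay above all DN arrays and below all AB arrays, and A replicate 3 reached B and SL values. The difference was 0.54 (SE 0.14, adjusted p = 0.0346) for A minus DN and 0.67 (SE 0.14, adjusted p = 0.000845) for AB minus A, and the first was not called on leaving out any single array among DN 1, DN 3, DN 4, A 1, A 3 and A 4 (adjusted p from 0.0698 up to 0.118). B2m, the light chain of every class I molecule (chromosome 2, 122147686 to 122153083), had a mean of 10.94 ± 0.06 for DN, 11.17 ± 0.14 for A, 11.80 ± 0.14 for AB, 11.58 ± 0.10 for B and 11.28 ± 0.15 for SL. It was lower in SL than AB by a signed difference of -0.53 (SE 0.10, adjusted p = 0.000928). Tapbp, which holds empty class I molecules at the pump, was at 9.92 ± 0.20 in DN and 10.82 ± 0.04 in AB. H2-D1, the other classical heavy chain, was at 10.92 ± 0.17 and 11.90 ± 0.11. H2-T24 went the other way, from 8.07 ± 0.32 in DN to 7.08 ± 0.45 in AB and 7.03 ± 0.29 in SL. Its call for AB against A (-0.65, SE 0.20, adjusted p = 0.016) was lost on leaving out any single array among AB 1 and AB 4 (adjusted p from 0.0643 up to 0.066). H2-M3, which presents formylated bacterial peptides, was highest in SL at 8.07 ± 0.36, while Tap1, H2-T3 and Tapbpl had the narrowest spread of group means of the 11.

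Among the 10 antiviral effectors 7 passed the F test, against 50.6% of all genes. Bst2, or tetherin, which holds budding viruses on the cell, was higher in all of AB, B and SL than in DN and A. For Bst2, DN arrays 1 to 4 gave 6.86, 6.91, 6.87 and 6.67, A arrays gave 7.54, 6.97, 7.50 and 7.45, AB arrays gave 8.30, 8.09, 7.98 and 8.61, B arrays gave 8.39, 8.04, 8.35 and 8.07, and SL arrays gave 8.08, 7.69, 7.95 and 7.95. A replicate 2 lay apart from the other A arrays, near DN. Bst2 was higher in AB than A by 0.88 (SE 0.14, adjusted p = 7.2e-05), in B than A by 0.85 (SE 0.14, adjusted p = 0.00012) and in SL than DN by 1.09 (SE 0.14, adjusted p = 3.44e-06). The difference of A from DN, 0.54 (SE 0.14, adjusted p = 0.0413), was not called on leaving out any single array among DN 1, DN 2, DN 3, DN 4, A 1, A 3, A 4, AB 1, SL 3 and SL 4 (adjusted p from 0.0514 up to 0.126). Ifit2, which restrains translation of viral RNA, was the gene with the largest difference of B from A. For Ifit2, DN arrays 1 to 4 gave 5.98, 5.60, 5.63 and 5.77, A arrays gave 6.20, 5.52, 5.58 and 5.39, AB arrays gave 6.34, 6.42, 6.79 and 6.14, B arrays gave 6.43, 6.97, 6.74 and 6.80, and SL arrays gave 6.69, 6.47, 6.88 and 6.85. A replicate 1 was the one A array that reached the AB range, and no A array reached the B or SL ranges. Ifit2 was higher in B than A by 1.06 (SE 0.17, adjusted p = 5.95e-05) and in SL than A by 1.05 (SE 0.17, adjusted p = 6.48e-05). Parp14, Ifi27, Ifi35 and Ifi30, the lysosomal thiol reductase that helps antigen processing, were each lowest in DN and called higher in AB, B and SL than in DN, with differences of SL from DN between 0.47 and 0.57. Isg20, Oas1e and Ifi27l2b did not pass the F test. Oas1e was called lower in AB than in DN (-0.42, SE 0.13, adjusted p = 0.0109) and lost that call on leaving out AB 2 (adjusted p = 0.0518).

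Rsad2, or viperin, is also an antiviral effector, and its values moved with marker transcripts of other cells within groups. For Rsad2, DN arrays 1 to 4 gave 7.50, 6.03, 6.98 and 8.10, A arrays gave 7.79, 7.47, 7.30 and 8.003, AB arrays gave 7.49, 7.02, 7.67 and 8.68, B arrays gave 8.33, 7.81, 8.74 and 9.28, and SL arrays gave 7.29, 6.29, 7.05 and 7.57. Its highest array was the one with the highest pan-leukocyte sum in 5 of 5 groups, and its lowest the one with the lowest sum in 5 of 5. Against the Sca-1-positive fibroblast sums the counts were 4 and 4 of 5. Rsad2 was higher in B than DN by 1.39 (SE 0.40, adjusted p = 0.00813), and lower in SL than B by a signed difference of -1.49 (SE 0.40, adjusted p = 0.0173). From replicates 1 and 2 of B and AB those differences were 0.92 (SE 0.43, adjusted p = 0.105) and -1.02 (SE 0.43, adjusted p = 0.17). The call for SL against B was also lost on leaving out any single array among B 4 and SL 2 (adjusted p from 0.0627 up to 0.0736). The part of leukocyte or fibroblast RNA in it was not tested.

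Class II genes fell into sets by their course. H2-Ab1 and H2-Aa, the chains of the I-A molecule, and H2-Eb1, a chain of I-E, were highest in B and lowest in SL and varied within groups. For H2-Ab1, DN arrays 1 to 4 gave 8.31, 7.18, 7.92 and 8.75, A arrays gave 8.61, 8.34, 7.63 and 8.69, AB arrays gave 7.62, 6.11, 7.20 and 9.14, B arrays gave 8.80, 9.02, 8.35 and 9.39, and SL arrays gave 7.94, 6.43, 6.47 and 7.52. The AB arrays alone ran from the lowest value of all, in replicate 2, to near the highest, in replicate 4. For H2-Aa, DN arrays 1 to 4 gave 7.07, 5.96, 6.46 and 7.81, A arrays gave 7.61, 7.05, 7.28 and 7.51, AB arrays gave 6.95, 5.66, 6.84 and 8.22, B arrays gave 8.03, 7.79, 7.57 and 8.56, and SL arrays gave 6.98, 5.86, 6.63 and 6.75. In both genes AB replicate 4 and B replicate 4 were among the highest arrays and AB replicate 2 the lowest. For H2-Ab1 the highest array was that with the highest pan-leukocyte sum in 4 of 5 groups and the lowest that with the lowest sum in 4 of 5. The counts were 4 and 3 of 5 for H2-Eb1 and 3 and 3 of 5 for H2-Aa. Against the Sca-1-positive fibroblast sums the same counts were 5 and 3 for H2-Ab1, 3 and 2 for H2-Eb1 and 4 and 4 for H2-Aa, so both marker sets moved with these genes. H2-Aa and H2-Eb1 had the same order of group means as Ptprc, which encodes CD45 and had B at 8.63 ± 0.71, A at 7.70 ± 0.73, AB at 7.54 ± 0.90, DN at 7.05 ± 1.17 and SL at 6.89 ± 0.92. H2-Ab1 was lower in SL than B by a signed difference of -1.80 (SE 0.49, adjusted p = 0.0171), H2-Aa by -1.43 (SE 0.42, adjusted p = 0.0274) and H2-Eb1 by -1.03 (SE 0.29, adjusted p = 0.0203). The first call was lost on leaving out any single array among B 4, SL 2 and SL 3 (adjusted p from 0.0508 up to 0.0659), the second on leaving out any single array among B 1, B 4, SL 2 and SL 3 (adjusted p from 0.0561 up to 0.107) and the third on leaving out any single array among B 2, B 4 and SL 2 (adjusted p from 0.0508 up to 0.0715). Cd74, the invariant chain of class II, lies outside the name rule and was also lower in SL than in B (-1.26, SE 0.36, adjusted p = 0.0245), a call lost on leaving out any single array among B 4, SL 2 and SL 3 (adjusted p from 0.0683 up to 0.0887). In B against DN, H2-Eb1 was called higher (adjusted p = 0.00737) and kept the call in every omission of 1 array. H2-Aa (adjusted p = 0.0291) and Cd74 (adjusted p = 0.016) were also called higher there, and each lost the call in some omissions. H2-Ab1 was not called there. The part of leukocyte or fibroblast RNA in these differences was not tested.

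**Figure D4:**
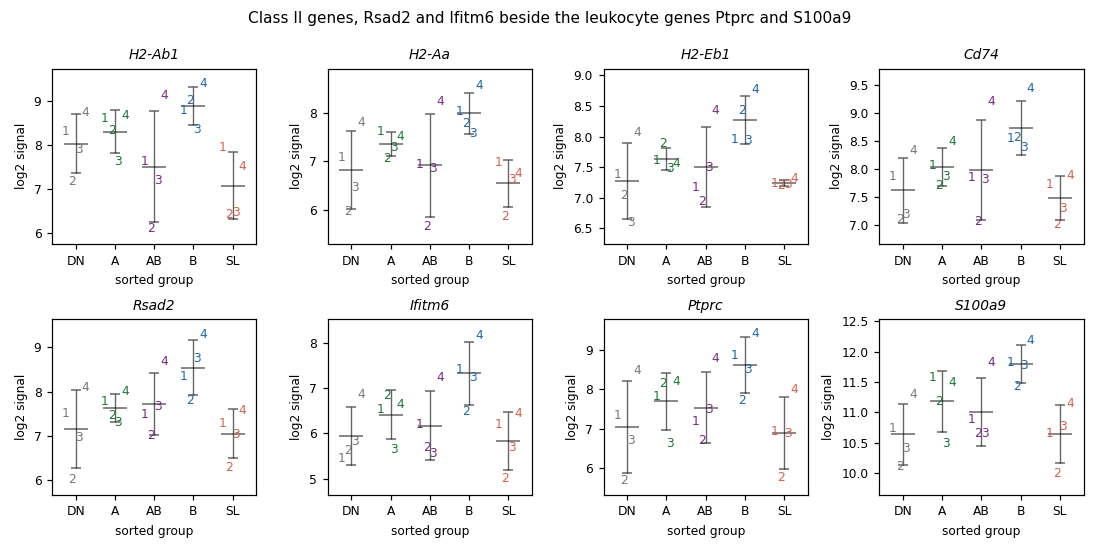
Log2 signal of class II genes with the invariant chain Cd74, of Rsad2 and Ifitm6, and of the leukocyte genes Ptprc and S100a9 (a neutrophil protein) in each sorted group; digits are replicate numbers and the bar is the mean ± SD of 4 arrays. B has the highest mean in all 8 panels, and replicate 4 of AB lies above the other AB arrays in all 8.

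H2-DMb1, a chain of the factor that loads peptides onto class II, was highest in DN. For H2-DMb1, DN arrays 1 to 4 gave 8.79, 8.51, 8.89 and 8.68, A arrays gave 8.48, 8.19, 8.02 and 8.35, AB arrays gave 7.68, 7.40, 7.41 and 8.13, B arrays gave 7.89, 7.45, 7.63 and 7.68, and SL arrays gave 7.53, 7.52, 7.05 and 7.25. All DN arrays lay above all arrays of AB, B and SL and above all A arrays, and AB replicate 4 was the one array of those 3 groups inside the A range. H2-DMb1 was lower in AB than A by a signed difference of -0.61 (SE 0.16, adjusted p = 0.00482), in B than A by -0.60 (SE 0.16, adjusted p = 0.00601) and in SL than DN by -1.38 (SE 0.16, adjusted p = 4.66e-07). H2-DMb2, its near-identical neighbour, had means between 6.07 ± 0.38 in SL and 7.27 ± 0.94 in B and did not pass the F test, and the probe sets of the pair may share signal.

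AB and B were also compared with the replicate number as a block, because same-numbered arrays of these groups deviated together. The block was fitted over all 20 arrays and 5 groups, also where same-numbered arrays did not deviate together. One such case was replicate 2 of DN and A (residual correlation -0.05). In the same fit AB against A had 28 called genes, against 26 without the block. The share of all genes called for AB against A in that fit was not computed. For AB against B the block raised the count of called genes from 1 to 10 of 53, against 3.52% of all genes. In AB, H2-Q6 (0.68 ± 0.17, adjusted p = 0.0382), H2-K1 (0.55 ± 0.10, adjusted p = 0.00367), H2-D1 (0.33 ± 0.08, adjusted p = 0.0398), Ifi47 (0.80 ± 0.20, adjusted p = 0.0294), Irf7 (0.53 ± 0.11, adjusted p = 0.00958) and Irf1 (0.36 ± 0.08, adjusted p = 0.0155) were higher. H2-Ab1 (-1.38 ± 0.33, adjusted p = 0.0239), H2-Aa (-1.07 ± 0.25, adjusted p = 0.0243), Ifitm6 (-1.15 ± 0.27, adjusted p = 0.023) and Rsad2 (-0.82 ± 0.20, adjusted p = 0.0254) were lower. Both sets hold genes whose arrays moved with the marker sums within groups, among them Irf7, which was higher in AB, and Rsad2, which was lower. The leukocyte sums ran from 1559 to 4203 in AB and 2561 to 5438 in B. The fibroblast marker sums were 601 to 3192 in AB and 383 to 4260 in B. The part of these cells in the differences was not tested.

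The name rule also caught 5 genes outside the roles above, of which 2 passed the F test, against 50.6% of all genes. Ifitm10 is a distant relative of the Ifitm genes. For Ifitm10, DN arrays 1 to 4 gave 7.96, 8.05, 7.74 and 7.43, A arrays gave 7.56, 7.18, 7.77 and 7.50, AB arrays gave 6.82, 6.69, 6.68 and 7.29, B arrays gave 6.73, 6.98, 7.05 and 6.23, and SL arrays gave 6.85, 6.99, 6.90 and 7.04. DN and A lay above most arrays of AB, B and SL, with B replicate 4 the lowest. It was lower in AB than A by a signed difference of -0.63 (SE 0.18, adjusted p = 0.00898), in B than A by -0.75 (SE 0.18, adjusted p = 0.00273) and in SL than DN by -0.85 (SE 0.18, adjusted p = 0.000565). Irf2bp2 encodes a partner of the factor Irf2. For Irf2bp2, DN arrays 1 to 4 gave 8.51, 8.64, 8.74 and 8.52, A arrays gave 8.72, 8.77, 8.99 and 8.57, AB arrays gave 9.20, 9.16, 9.32 and 8.85, B arrays gave 9.11, 9.24, 9.05 and 9.05, and SL arrays gave 8.92, 9.01, 8.73 and 8.72. Its means were highest in AB and B. Its call for AB against A was lost on leaving out any single array among A 4 and AB 3 (adjusted p from 0.0515 up to 0.0518). Irf2bp1, Irf2bpl and H2-Ke6, an enzyme gene of the class II region, did not pass.

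A list of 52 other genes of these pathways, among them signalling kinases, feedback inhibitors and proteasome parts, had 31 measured members. Of these 31, 10 were higher and 3 lower in AB than in A (41.9%, against 32.9% of all genes). In B against A 7 were higher and 3 lower (32.3%, against 29.7%), in SL against DN 13 and 3 (51.6%, against 45.2%), and in A against DN 1 and 0 (3.23%, against 3.53%). The shares for B against A, SL against DN and A against DN lie near those of all genes. The immunoproteasome, which cuts peptides for class I, was among the higher genes. Psmb8, one of its catalytic subunits, had a mean of 7.18 ± 0.30 for DN, 7.96 ± 0.29 for A, 8.98 ± 0.22 for AB, 8.59 ± 0.42 for B and 8.02 ± 0.30 for SL. It was higher in AB than A by 1.03 (SE 0.20, adjusted p = 0.000517) and lower in SL than AB by a signed difference of -0.96 (SE 0.20, adjusted p = 0.00334), as were H2-K1, B2m and H2-Q6. Its difference of A from DN, 0.77 (SE 0.20, adjusted p = 0.0384), was not called on leaving out any single array among DN 1, DN 2, DN 3, A 1, A 2 and A 4 (adjusted p from 0.0518 up to 0.149). Psmb10, another subunit, was higher in AB than A by 0.59 (SE 0.13, adjusted p = 0.00125) and Psmb9 by 0.71 (SE 0.23, adjusted p = 0.0203), the latter call being lost on leaving out any single array among A 2, AB 2 and AB 4 (adjusted p from 0.0741 up to 0.0765). Lgals3bp, a secreted glycoprotein induced by interferon, was higher in AB than A by 0.99 (SE 0.15, adjusted p = 4.44e-05). Sp100, a nuclear body protein, was higher in B than A by 1.11 (SE 0.27, adjusted p = 0.00423), and Samd9l, an antiviral protein, by 0.93 (SE 0.19, adjusted p = 0.000659). The Sp100 call was lost with B and AB from replicates 1 and 2. In DN, A, AB and B the highest Sp100 array was replicate 4, as for the leukocyte and fibroblast sums. The part of these cells was not tested.

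The 3 genes of that list lower in the PDGFRb-positive groups and in SL were Ptpn2, Socs3 and Jak2. Ptpn2 encodes a phosphatase that switches off STAT signalling, Socs3 a feedback inhibitor of cytokine receptors and Jak2 the kinase bound to Ifngr2. Ptpn2 read 9.57, 9.39, 9.56 and 9.54 in DN replicates 1 to 4, 9.49, 9.47, 9.08 and 9.27 in A, 8.31, 8.30, 8.44 and 8.64 in AB, 8.55, 8.25, 8.66 and 8.74 in B, and 8.47, 8.42, 8.35 and 8.35 in SL. Every Ptpn2 value of DN and A lay above every value of the other 3 groups. The signed difference of AB from A was -0.91 (SE 0.11, adjusted p = 3.32e-06) for Ptpn2, -0.52 (SE 0.13, adjusted p = 0.00333) for Socs3 and -0.51 (SE 0.11, adjusted p = 0.000831) for Jak2, and that of SL from DN was -1.12 (SE 0.11, adjusted p = 1.16e-07), -0.81 (SE 0.13, adjusted p = 3.11e-05) and -0.87 (SE 0.11, adjusted p = 1.36e-06).

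**Figure D5:**
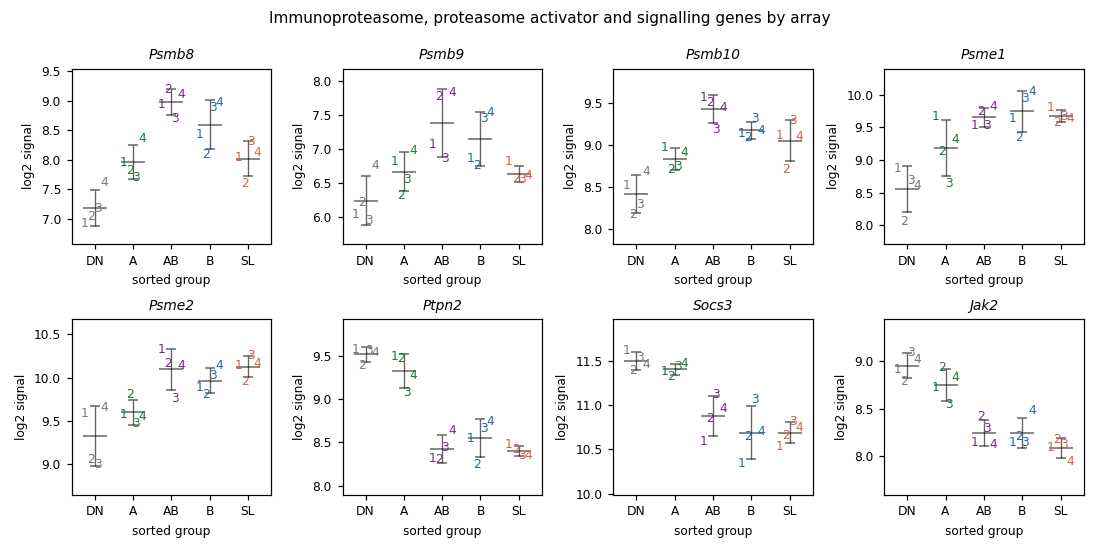
Log2 signal of immunoproteasome subunits (Psmb8, Psmb9, Psmb10), proteasome activator subunits (Psme1, Psme2) and the signalling genes Ptpn2, Socs3 and Jak2 in each sorted group; digits are replicate numbers and the bar is the mean ± SD of 4 arrays. The proteasome genes have their lowest mean in DN, while Ptpn2, Socs3 and Jak2 have their highest there.

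In the authors' deposited table for A and AB, 29 of the 48 genes listed had a q-value under 0.05, 24 of them higher in AB. The authors' deposited table for B and AB had 1 of 48, that for DN and A 4 of 43, that for A and B 23 of 43, and that for DN and SL 32 of 41. The share of all entries with such a q-value was not computed, so these counts do not set the 53 genes apart from others. Positions were taken from these tables, where no genome build is named, for 48 of the 53 genes, and all 48 overlapped the gene of that symbol in GRCm38.p6. Of these 48, 14 lie on chromosome 17, which carries the class I and class II regions, and 7 on chromosome 7, which carries Ifitm3.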

How the data were processed

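Array signal was measured in 5 sorted groups of 4 arrays. Log2 values of 24539 probe sets stand in the authors' deposited series table. Their deposited filtered table has linear intensity values of 12440 probe sets with gene symbols, 83 of them without one. The log2 of the intensity values lay within 0.0075 of the series table. How the authors normalized and filtered the values, the scanner and the genome build are not stated in the labels or headers. Comparison tables deposited by the authors hold log2 differences, q-values and gene positions, per the file headers. From the series table, 1 probe set per symbol (highest mean) was kept for 9129 genes and fitted with limma 3.58.1 (R 4.3.3), 1 mean per group over 20 arrays, with 15 residual and 4.34 prior degrees of freedom. P-values are two-sided and Benjamini-Hochberg adjusted per pair. Probe sets of class I, H2-DMb, Gbp and Ifitm genes can share signal. The fit was tested on simulated data.

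The members, roles, marker lists and pathway list were chosen with earlier results of these data known. Values on every array are given for up to 3 genes per role with the widest spread of group means among those past the F test, up to 6 genes per pair and direction are named among those called, and up to 4 called pathway genes per pair. Other members are named beside their role, and the other genes named after their values were seen are proteasome subunits and Cd74. Same-numbered arrays had residual correlations from 0.185 to 0.398 for A and AB and from 0.17 to 0.422 for AB and B, all above 0.1. They were taken as paired there on the data alone, and only in the fit with the replicate block. All other values for these pairs come from fits without the block. In the other 8 pairs at least 1 was under 0.1. Alternatives were the replicate block, quantile normalization, the mean of probe sets, a mean log2 of at least 7, the compared groups alone, B and AB from replicates 1 and 2, no replicate 4, and each array left out. Markers of B lymphocytes, dendritic cells, T cells and NK cells were not analysed here. Values of 1 of the 53 genes are not reported here, though it is in the counts.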

Additional observations from a re-analysis of the deposited data

Results flagged for a closer look

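In 6 of 130 groups of 4 arrays tested, 1 array stood apart from the other 3, by the critical value of Dixon's test, and chance gives about 1 in 20 such groups. Ifngr1 in B replicate 4 was at 10.054, above the next array at 9.871. Irf7 in AB replicate 4 was at 7.272, above the next at 6.812, and this array also had the highest leukocyte and fibroblast marker sums of AB. Ifih1 in DN replicate 1 was at 5.638, below the next at 5.908, and in A replicate 3 at 5.916, below the next at 6.278. Ifi47 in SL replicate 4 was at 6.705, above the next at 5.920. Bst2 in A replicate 2 was at 6.966, below the next at 7.452.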

How the results depend on the processing

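Of 83 named differences 64 kept their call in every setting and 71 in every omission of 1 array, and 0 reversed. Calls lost were 9 with B and AB from replicates 1 and 2, 5 with the compared groups alone, 5 without any replicate 4, 2 with quantile normalization and 0 with the replicate block, the mean of probe sets or the mean log2 of at least 7. The count of called genes moved by over 1.5 times in 3 pairs. For A against DN it was 3 with the compared groups alone and 4 without any replicate 4, against 7. For AB against B it was 10 with the replicate block and 5 without any replicate 4, against 1. For SL against B it was 8 with B and AB from replicates 1 and 2, against 13. The cause was not tested. The block moved no other count by over 1.5 times. Over omissions of 1 array the counts ran from 36 to 45 for the F test, 4 to 8 for A against DN, 29 to 30 for SL against DN, 24 to 28 for AB against A, 15 to 21 for B against A, 1 to 6 for AB against B, 34 to 36 for AB against DN, 36 to 39 for B against DN, 20 to 25 for SL against A, 9 to 10 for SL against AB and 7 to 14 for SL against B. The count was 4 for A against DN without DN replicate 1 or A replicate 1, 3 or 4, and for AB against B it was 6 without AB replicate 4, 3 without B replicate 4 and 2 without SL replicate 2. For SL against B it was 8 without B replicate 1 or 4 or SL replicate 3, and 7 without SL replicate 2. The fit to all probe sets without the authors' filter was not run, since names for the others were not used here. Dim genes such as Ifi204 lie near the low end of the scale, where array signal limits the size of a difference.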
